A study of Rattus norvegicus with 15 samples.

Results

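The Egr and Nr4a transcription factors are among the genes that neurons switch on within minutes of strong activity. The 7 members described here, Egr1, Egr2, Egr3, Egr4, Nr4a1, Nr4a2 and Nr4a3, were taken by symbol from a table of read counts for 22314 genes in dorsal CA1, the output region of the dorsal hippocampus, of male wild-type Sprague-Dawley rats aged 8 to 9 weeks. All 7 passed the filter on low counts, along with 14880 genes in all. The 15 libraries formed 3 groups of 5: scrambled siRNA in animals left untrained (naive libraries), scrambled siRNA followed by contextual fear conditioning (scrambled trained libraries), and siRNA against Rnf20 followed by the same conditioning (Rnf20-labelled libraries). In contextual fear conditioning an animal learns that a place predicts a shock. Every group had siRNA of the Accell type, which cells take up without a carrier, injected into dorsal CA1, and in the trained groups the injection preceded training by 5 days. The labels give neither the time from training to dissection nor whether each library came from its own animal, so a p-value here reflects spread among libraries, which may be technical. A naive group with Rnf20 siRNA was not analysed here, and the labels describe the tissue as holding all brain cell types.

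The Egr proteins bind GC-rich sites through a zinc finger domain that the family shares, and the co-repressors Nab1 and Nab2 limit the activity of some of them. The Nr4a proteins are nuclear receptors whose ligand pocket is filled, so that the amount of protein, and thus its rapid transcription, sets much of their activity. In neurons, calcium and ERK signalling reach Egr promoters largely through serum response factor (SRF) on CArG boxes, and reach Nr4a promoters largely through CREB on cAMP response elements (CRE).

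The promoters are shown because this family is known to respond to activity through elements such as CArG boxes and CREs, which were searched for here. RefSeq start sites on the GRCr8 assembly were matched for 5 of the 7 members (Egr1, Egr2, Egr4, Nr4a1 and Nr4a2), and the 250 bases before the annotated start were searched on both strands. The counts themselves were made on another assembly, Rnor_6.0, and no sequence was read from it. Capitals mark CArG boxes, the CRE core (TGACG, or CGTCA when read on the other strand) and the Egr site GCGNGGGCG on either strand. The full CRE, TGACGTCA, contains the core on both strands. Each sequence is written from 5′ to 3′ on the strand of its gene and stops at the annotated start.
Egr1, chr18:26736828-26737077, plus strand: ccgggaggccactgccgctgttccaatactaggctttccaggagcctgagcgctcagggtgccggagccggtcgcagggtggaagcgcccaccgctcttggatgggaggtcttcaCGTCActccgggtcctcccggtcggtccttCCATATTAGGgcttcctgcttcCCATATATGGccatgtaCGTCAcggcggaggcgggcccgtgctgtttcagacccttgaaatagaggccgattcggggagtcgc
Egr2, chr20:21054442-21054691, minus strand: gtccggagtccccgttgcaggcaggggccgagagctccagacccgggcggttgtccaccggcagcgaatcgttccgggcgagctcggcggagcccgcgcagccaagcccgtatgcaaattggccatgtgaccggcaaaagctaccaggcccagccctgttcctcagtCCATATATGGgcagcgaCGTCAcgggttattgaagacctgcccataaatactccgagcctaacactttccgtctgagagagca
Egr4, chr4:119607818-119608067, minus strand: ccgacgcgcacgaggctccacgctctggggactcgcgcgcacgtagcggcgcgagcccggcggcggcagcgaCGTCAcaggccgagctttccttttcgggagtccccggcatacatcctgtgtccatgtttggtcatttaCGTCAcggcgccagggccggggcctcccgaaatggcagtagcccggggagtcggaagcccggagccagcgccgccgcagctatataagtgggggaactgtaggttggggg
Nr4a1, chr7:134259888-134260137, plus strand: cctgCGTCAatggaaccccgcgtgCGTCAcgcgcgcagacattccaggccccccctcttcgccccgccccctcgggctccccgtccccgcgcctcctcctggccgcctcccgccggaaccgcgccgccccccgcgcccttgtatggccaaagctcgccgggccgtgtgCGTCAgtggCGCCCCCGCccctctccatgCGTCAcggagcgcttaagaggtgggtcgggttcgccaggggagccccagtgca
Egr1 and Egr2 held the same element at the same place. In both, the CArG box CCATATATGG spanned positions -83 to -74 from the start, and a CRE core followed at -66 to -62. Egr1 held a second CArG box, CCATATTAGG, at -105 to -96, and another CRE core at -135 to -131. A CArG box occurred in 501 of all 33469 promoter windows of this length, and more than one in 7 of them (0.0209%). Egr4 had CRE cores at -178 to -174 and -110 to -106. Nr4a1 had 4, starting at -246, -226, -82 and -53, with an Egr site between the last pair at -73 to -65. Nr4a2 had 1, starting at -8. A CRE core was present in 18.2% of all windows and an Egr site in 4.29%. The full CRE (1.59% of windows) and the Nr4a monomer site AAAGGTCA, the NBRE (1.24%), had no match in these 5 windows, which says only that those letters were not in them. Among 23 other rapidly induced transcription regulators, 15 had a window, of which 1 held a CArG box, 9 a CRE core, 4 the full CRE, 5 an Egr site and 0 an NBRE. A match is a description of the letters and not evidence of binding.

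**Figure D1:**
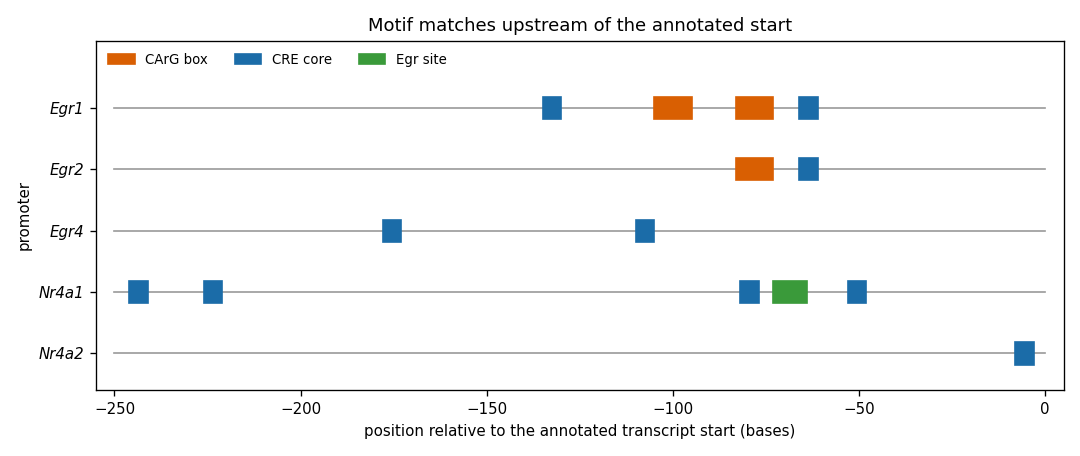
Motif matches in the 250 bases before the annotated transcript start of 5 members; the x axis is the position relative to the start in bases, each line is a promoter and each box a match coloured by motif. The CArG box at -83 to -74 and the CRE core at -66 to -62 line up between Egr1 and Egr2.

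Total counts were 12537250 to 20644425 per library. Rnf20 itself was at 42.0 ± 2.32 CPM in Rnf20-labelled and 43.2 ± 5.38 CPM in scrambled trained libraries (SD, n = 5 each; edgeR adjusted p = 0.945), so the group is called by its label and no direction below is that of a measured loss of Rnf20 mRNA. Of 8 listed CA1 markers 5 were tested, among them Wfs1 at 132 to 1020 CPM and Mpped1 at 96.4 to 390 CPM over the scrambled trained libraries, the widest range of the 3 groups. Markers of CA3 and dentate granule neurons were present as well. In naive libraries their sums were 410 to 582 CPM and 108 to 186 CPM, beside 474 to 1019 CPM for the CA1 markers. Some libraries stood apart. Scrambled trained replicate 10 had the lowest summed CA1 markers (271 CPM, against at least 474 CPM in naive and 499 CPM in Rnf20-labelled libraries) and the highest summed striatal markers (623 CPM, against at most 292 CPM in naive libraries). Scrambled trained replicates 10 and 15 and Rnf20-labelled replicates 14 and 18 lay farthest out on the first principal component. Scrambled trained replicates 5 and 16 and Rnf20-labelled replicate 20 held little choroid plexus RNA. Results are given without these libraries where that changes them most. Levels below are CPM, read counts scaled to library size with TMM factors, and not divided by gene length, so a level is compared between libraries and never between genes.

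After training under scrambled siRNA, Egr2 stood out among the members: it was 3.38 times its naive level, and its lowest trained library lay above the highest naive one. Egr1, Egr4 and Nr4a1 had fitted levels 1.40 to 1.45 times the naive ones with overlapping libraries, and Egr3, Nr4a2 and Nr4a3 had folds of 0.987 to 1.08. By edgeR's quasi-likelihood test with Benjamini-Hochberg adjustment over all genes, 0 of the 7 members passed an adjusted p of 0.05, and neither did any other gene (0% of 14880). At an unadjusted p under 0.05 there were 2 of 7 members, Egr2 and Nr4a1, both higher, against 9.97% of all genes and 6.62% that were higher. DESeq2's Wald test called 58 genes, 0.398% of those it adjusted, and Egr2 was one of them (adjusted p = 0.0189). Of the 7 members, 6 had a log2 fold change above 0, the exception being Egr3, against 47.2% of all genes, and the members' median was 0.49 against -0.012 over all genes.

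Egr2, also known as Krox20, patterns the hindbrain and drives myelination by Schwann cells in development, and is induced by strong synaptic activity in the adult brain. In naive replicates 1, 2, 9, 11 and 12 it was at 1.65, 2.81, 3.45, 0.628 and 0.855 CPM. In scrambled trained replicates 5, 6, 10, 15 and 16 it was at 7.66, 7.12, 4.34, 6.49 and 6.50 CPM. In Rnf20-labelled replicates 4, 8, 14, 18 and 20 it was at 10.0, 3.13, 4.67, 3.38 and 6.37 CPM. The naive libraries were low throughout and did not overlap with the scrambled trained ones, while the lowest Rnf20-labelled libraries, replicates 8 and 18, fell just inside the top of the naive range. Groups that did not overlap with the trained one higher made up 1.10% of all genes, and Egr2 was the 1 member among them. On the log2 scale the difference was 1.76 (SE 0.42, with a 95% interval of 0.87 to 2.64; edgeR adjusted p = 0.379; unadjusted p = 0.000708, place 20 of all genes). In bulk tissue, a change in RNA per cell and in the number of cells that hold it cannot be told apart. Egr2 rested on 10 to 57 reads in naive libraries and 74 to 142 in scrambled trained ones. The exact Poisson 95% intervals of the highest naive library (2.62 to 4.48 CPM) and the lowest trained one (3.41 to 5.45 CPM) overlapped, and these intervals cover counting error only.

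Egr1, also known as zif268, is the member most used as a mark of activated neurons and is needed for lasting memory. It was at 84.2, 102, 142, 78.9 and 63.9 CPM in the naive libraries, in the order of replicates above. It was at 155, 157, 84.8, 112 and 166 CPM in the scrambled trained libraries and at 185, 95.7, 109.8, 64.6 and 194 CPM in the Rnf20-labelled ones. Scrambled trained replicates 5, 6 and 16 exceeded every naive one, while replicate 10 sat near the naive median. The means were 94.1 ± 29.9, 135 ± 34.9 and 129.8 ± 56.9 CPM (SD, n = 5 each). Training went with a log2 fold change of 0.52 (SE 0.29, 95% interval -0.099 to 1.14; edgeR adjusted p = 0.578). It was 0.32 without the 3 libraries low in choroid plexus RNA, of which scrambled trained replicates 5 and 16 are 2, and 0.87 with the reactive glia score as a covariate.

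Egr4 is a further zinc finger member expressed mainly in the nervous system. It was at 11.6, 5.45, 6.12, 5.90 and 5.34 CPM in naive, 11.3, 11.0, 8.16, 7.31 and 10.5 CPM in scrambled trained and 12.9, 8.13, 7.08, 6.02 and 10.1 CPM in Rnf20-labelled libraries. All naive libraries but replicate 1 lay below every scrambled trained one, and replicate 1 lay above all of them. The means were 6.88 ± 2.65, 9.66 ± 1.81 and 8.85 ± 2.72 CPM. Their log2 ratio, scrambled trained over naive, was 0.49 (SE 0.24, 95% interval -0.028 to 1.01; edgeR adjusted p = 0.524). It was 0.76 without naive replicate 1 and 0.35 without the 3 libraries low in choroid plexus RNA. With naive replicate 1 left out, Egr2 and Egr4 were higher in every scrambled trained than in every naive library. The share of all genes in that setting was 1.39%. For Egr4 this outcome was fixed by the choice of library, since only naive replicate 1 had overlapped. The 1.39% is thus no matched background, because other genes did not lose their own overlapping library.

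Egr3, which is needed for muscle spindle development and for normal hippocampal plasticity, had close means in the 3 groups. It was at 80.3, 49.4, 47.7, 40.0 and 48.1 CPM in naive, 64.3, 64.6, 34.3, 50.9 and 47.8 CPM in scrambled trained and 65.0, 51.0, 63.3, 38.7 and 52.1 CPM in Rnf20-labelled libraries. Naive replicate 1 held the highest value of all 15 and scrambled trained replicate 10 the lowest. The means were 53.1 ± 15.6, 52.4 ± 12.7 and 54.0 ± 10.6 CPM, with a log2 ratio after training of -0.019 (SE 0.20, 95% interval -0.45 to 0.41; edgeR adjusted p = 0.984). Without naive replicate 1 the value was 0.18 and without scrambled trained replicate 10 it was 0.11.

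**Figure D2:**
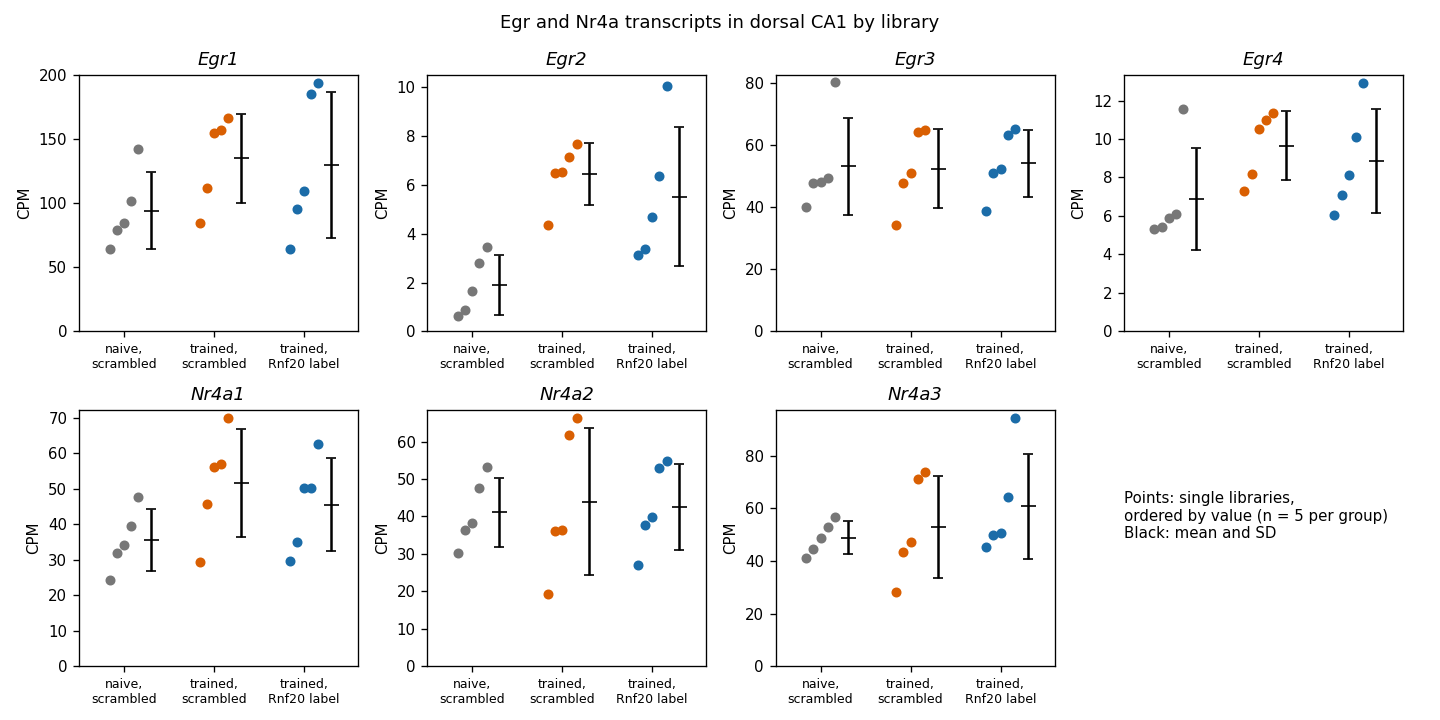
CPM (y axis, from 0, one scale per gene) of each member in the 15 libraries by group (x axis); points are single libraries and the black marks the mean and SD of 5. Egr2 is the 1 member whose scrambled trained libraries, from 4.34 CPM upwards, all lie above the naive ones, which reach 3.45 CPM.

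Nr4a1, also known as Nur77, is an orphan nuclear receptor that cAMP and calcium signals induce in CA1. It was at 34.0, 39.5, 47.7, 31.9 and 24.2 CPM in naive, 56.9, 70.0, 29.3, 45.7 and 56.2 CPM in scrambled trained and 62.5, 35.0, 50.2, 29.8 and 50.3 CPM in Rnf20-labelled libraries. In each trained group 3 libraries exceeded every naive one, and scrambled trained replicate 10 and Rnf20-labelled replicate 18 lay in the lower part of the naive range. The means were 35.5 ± 8.78, 51.6 ± 15.2 and 45.5 ± 13.2 CPM. Scrambled trained over naive, the log2 ratio was 0.54 (SE 0.24, 95% interval 0.033 to 1.05; edgeR unadjusted p = 0.0383, adjusted p = 0.468). It was 0.87 with the reactive glia score as a covariate and 0.44 without the 3 libraries low in choroid plexus RNA.

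Nr4a2, also known as Nurr1, specifies midbrain dopamine neurons and takes part in hippocampal memory. It was at 38.4, 47.6, 53.3, 30.2 and 36.3 CPM in naive, 66.2, 61.8, 19.3, 36.4 and 36.04 CPM in scrambled trained and 54.9, 39.8, 52.9, 27.1 and 37.7 CPM in Rnf20-labelled libraries. The scrambled trained group held both the highest 2 libraries of all 15, replicates 5 and 6, and the lowest, replicate 10. The means were 41.2 ± 9.20, 43.9 ± 19.6 and 42.5 ± 11.5 CPM, with a log2 ratio after training of 0.092 (SE 0.28, 95% interval -0.51 to 0.69; edgeR adjusted p = 0.935). Leaving out scrambled trained replicate 5 gave -0.10, leaving out replicate 6 gave -0.055, and leaving out replicate 10 gave 0.28.

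Nr4a3, also known as Nor-1, behaved much like Nr4a2 from library to library. It was at 44.5, 53.1, 48.7, 41.3 and 56.6 CPM in naive, 71.2, 73.7, 28.3, 47.3 and 43.5 CPM in scrambled trained and 64.3, 50.5, 94.2, 45.3 and 49.8 CPM in Rnf20-labelled libraries. The naive libraries were close together, and the spread came from scrambled trained replicates 5, 6 and 10 and from Rnf20-labelled replicate 14, the highest of all. The means were 48.8 ± 6.20, 52.8 ± 19.3 and 60.8 ± 20.0 CPM, with a log2 ratio after training of 0.11 (SE 0.24, 95% interval -0.40 to 0.62; edgeR adjusted p = 0.905). With replicate 5 of the scrambled trained group left out it was -0.020, with replicate 6 left out -0.029, and with replicate 10 left out 0.27.

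Between the trained groups, which asks whether levels after training differ with the Rnf20 siRNA label, the members had close means and wide intervals. With no naive Rnf20 siRNA group analysed, a different response to training cannot be told apart from a difference present before it. By edgeR 0 of 7 passed (0% of all genes), 0 were at an unadjusted p under 0.05 (5.61% of all genes) and 0 had groups that did not overlap (0.659% of all genes). DESeq2 called 0 members and 0.00672% of genes. The members' median log2 fold change was -0.055 against 0.0023 over all genes, and 2 of 7 were above 0 (50.7% of all genes). The values of Rnf20-labelled minus scrambled trained libraries were -0.055 (SE 0.29) for Egr1, -0.21 (SE 0.39) for Egr2, 0.044 (SE 0.20) for Egr3 and -0.12 (SE 0.24) for Egr4. They were -0.18 (SE 0.24) for Nr4a1, -0.047 (SE 0.28) for Nr4a2 and 0.20 (SE 0.24) for Nr4a3. The narrowest interval was that of Egr3, which covered folds of 0.766 to 1.39, and the widest that of Egr2, which covered 0.484 to 1.54. Folds inside an interval are compatible with the data, and the smallest difference that could be detected was not computed. With the reactive glia score as a covariate all 7 values were below 0, from -0.15 for Nr4a3 and -0.22 for Egr3 to -0.63 for Egr2, with a median of -0.39 against -0.0037 over all genes. Nr4a1 was then at an unadjusted p of 0.0288 by edgeR (adjusted p = 0.717), the 1 member at that level against 6.88% of all genes in that fit, and 0 members passed. Without a covariate, leaving out single libraries moved the median between -0.22, without Rnf20-labelled replicate 4, and 0.080, without Rnf20-labelled replicate 18. In the scrambled trained group, omitting replicate 10 gave -0.18, omitting replicate 15 gave -0.12, omitting replicate 16 gave -0.088, and omitting replicate 5 or 6 gave -9e-04 or -0.0025. In the Rnf20-labelled group, omitting replicate 20 gave -0.17 and omitting replicate 8 gave -0.025.

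Rnf20-labelled trained libraries were also set against the naive ones. The comparison shares the naive libraries with the first one, so the 2 sets of values stand side by side and are not independent. Egr2 was again the member of largest difference, with means of 5.51 ± 2.83 against 1.88 ± 1.23 CPM and a log2 fold change of 1.54 (SE 0.42; 95% interval 0.65 to 2.43, edgeR adjusted p = 1.00; unadjusted p = 0.00209, place 6 of all genes). By edgeR 0 of 7 members passed (0% of all genes), and Egr2 was the 1 member at an unadjusted p under 0.05, against 2.30% of all genes. In 0 of 7 did the groups not overlap, against 0.497% of all genes. DESeq2 called 0 members and 0.00672% of genes. The log2 fold changes of the others were 0.46 for Egr1, 0.37 for Egr4, 0.36 for Nr4a1, 0.32 for Nr4a3, 0.044 for Nr4a2 and 0.026 for Egr3. All 7 were above 0, as were 50.6% of all genes, and their median was 0.36 against 0.0013. Single libraries moved these values: without Rnf20-labelled replicate 4 they were 0.30 for Egr1, 0.19 for Egr4 and 0.22 for Nr4a1, with a median of 0.22. Egr1 was at 0.28 without Rnf20-labelled replicate 20, Nr4a3 at 0.10 without replicate 14 of that group, and Egr4 at 0.64 without naive replicate 1. In edgeR's F test among the 3 groups 0 members passed (0% of all genes). Egr2 was the 1 member at an unadjusted p under 0.05 there (edgeR adjusted p = 0.743), against 6.44% of all genes.

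**Figure D3:**
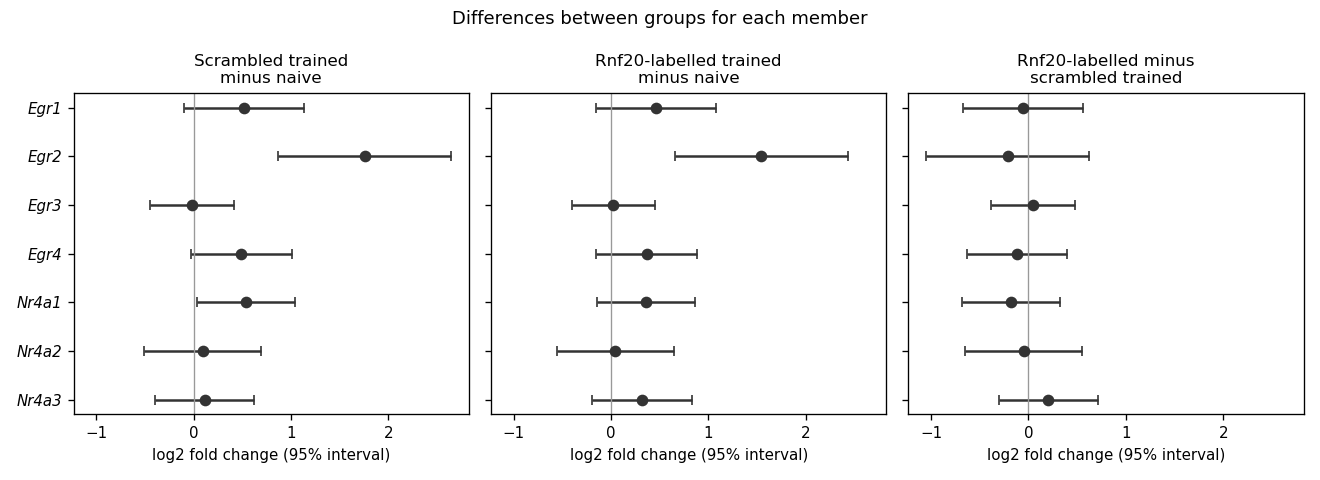
Log2 fold change (x axis) of each member (y axis) in the 3 comparisons, with points for edgeR's estimate and bars for its 95% interval. The interval excludes 0 for Egr2 in both comparisons with naive libraries and for Nr4a1 in the first, before any adjustment for the number of genes.

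Ordered by mean level, Egr1, Egr2, Egr4 and Nr4a1 ran from naive through Rnf20-labelled to scrambled trained libraries, and Nr4a2 did so within 3 CPM. Nr4a3 ran from naive through scrambled trained to Rnf20-labelled, and Egr3 was lowest in scrambled trained and highest in Rnf20-labelled libraries. No pair of neighbours in these orders differed beyond its spread by an adjusted test in edgeR.

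Markers of the cells in the samples moved with both the training comparison and the comparison of the trained groups. The 10 pan-neuronal markers were all lower in mean fold change in scrambled trained than in naive libraries, with summed levels of 4348 to 7744 CPM against 6328 to 7690 CPM. Scrambled trained replicates 10, 15 and 16 (4348, 5329 and 6173 CPM) lay below every naive library, while replicates 5 and 6 (7744 and 7260 CPM) did not. Eno2, 1 of the 10 and part of their score, was near the floor at 0.235 to 0.860 CPM over the 3 groups. The CA1 markers did not share the lower direction: 4 of 5 tested had a fold change above 0, with sums of 271 to 1570 CPM against 474 to 1019 CPM. Of the 6 tested CA3 markers 0 were above 0. The 14 tested reactive glia markers were all higher, at 4589 to 9384 CPM against 3334 to 5027 CPM. The 7 choroid plexus markers were all lower, at 139 to 5048 CPM against 1842 to 5369 CPM, and Rnf20-labelled libraries held 272 to 2261 CPM. All 5 blood genes tested were higher, at 225 to 1828 CPM against 157 to 264 CPM. Of the 9 striatal markers 8 had a fold change above 0, but scrambled trained replicate 10 carried this count: its sum was 623 CPM, while the other 4 scrambled trained libraries, at 70.3 to 91.9 CPM, lay below every naive one (100.1 to 292 CPM). With the reactive glia score as a covariate the log2 fold change after training was 2.16 for Egr2, 0.50 for Nr4a2 and 0.47 for Nr4a3. In that fit 6 of 7 members, all but Egr3, were at an unadjusted p under 0.05 in edgeR, against 8.48% of all genes, while 0 passed after adjustment. The score itself was at 4.72 to 5.27 in naive and 4.97 to 7.16 in scrambled trained libraries. Its adjustment thus cannot be fully separated from the training comparison. With the pan-neuronal score the log2 fold change was 0.80 for Egr1, 0.74 for Egr4, 0.77 for Nr4a1 and 0.35 for Nr4a2, and 4 members were at an unadjusted p under 0.05, against 10.9% of all genes in that fit. Without the 4 libraries far out on the first component the log2 fold change was 1.90 for Egr2, 0.79 for Nr4a1 and 0.77 for Egr1. In that setting 3 members, Egr1, Egr2 and Nr4a1, had scrambled trained libraries that were all above the naive ones, against 2.09% of all genes. For Egr1 and Nr4a1 the omission fixed this outcome. Scrambled trained replicates 10 and 15, both left out, were the ones of that group inside the naive range. Without the 3 libraries low in choroid plexus RNA the log2 fold change was 1.65 for Egr2 and 0.44 for Nr4a1. Egr2 alone was then at an unadjusted p under 0.05, against 14.8% of all genes. Between the trained groups all 10 pan-neuronal markers were higher in Rnf20-labelled libraries, at 4982 to 8723 CPM, and all 14 reactive glia markers were lower, at 2582 to 8417 CPM. All 5 blood and all 5 tested leukocyte genes were lower there too. Of the 5 CA1 markers 1 was higher there, and of the 6 CA3 markers all 6 were.

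From library to library the members varied more than most genes of their expression level. Their biological coefficient of variation, the spread between replicates beyond counting error, was 0.225 for Egr3, 0.263 for Nr4a1, 0.265 for Nr4a3, 0.266 for Egr4, 0.310 for Nr4a2, 0.318 for Egr1 and 0.432 for Egr2, against a median of 0.161 over genes tested. Relative to the trend at their own level the ratio ran from 1.07 for Egr4 to 2.04 for Egr1, whose ratio exceeded that of 97.0% of genes. For Nr4a3 the coefficient of variation of CPM was 12.7% among naive, 36.6% among scrambled trained and 32.9% among Rnf20-labelled libraries, whereas for Egr2 it was highest among the naive ones, at 65.2%. The difference between groups in spread was not tested.

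The members varied together to different degrees, and differences between correlations were not tested. Among the 21 pairs, Pearson's r of log2 CPM over the 15 libraries ran from 0.18 to 0.92, and 13 pairs passed a permutation test after Benjamini-Hochberg adjustment over the pairs. Without the 4 libraries far out on the first principal component, which held 35.7% of the variance over all tested genes, 5 pairs passed. The share of other gene pairs that would pass was not computed, so the count does not show a link particular to the members. Egr1 and Nr4a1 were closest (r = 0.92, permutation p = 1e-05, the smallest that the permutations can give, adjusted p = 0.00021; Spearman's rho = 0.91, p = 6e-05, adjusted p = 0.00126). Nr4a2 and Nr4a3 came next (r = 0.85, permutation p = 4e-05, adjusted p = 0.00042; rho = 0.80, p = 0.00041, adjusted p = 0.00215). Egr2 went with Nr4a1 (r = 0.79, permutation p = 0.00035, adjusted p = 0.0021; rho = 0.84, p = 0.00024, adjusted p = 0.00168) and with Egr1 (r = 0.77, permutation p = 0.0004, adjusted p = 0.0021; rho = 0.84, p = 0.00019, adjusted p = 0.00168). Egr3 went with Nr4a2 (r = 0.75, permutation p = 0.00122, adjusted p = 0.00512; rho = 0.74, p = 0.00243, adjusted p = 0.00851). Egr4 and Nr4a3 were least alike (r = 0.18, permutation p = 0.536, adjusted p = 0.536; rho = 0.11, p = 0.697, adjusted p = 0.697). Without the 2 libraries farthest from the median of the first-named gene, r was 0.94, 0.73, 0.75, 0.72, 0.87 and 0.15 in the order given, with Egr2 and Egr1 as the first-named genes of their pairs. With group means removed, r was 0.90 for Egr1 with Nr4a1 and 0.88 for Nr4a2 with Nr4a3. It was 0.84 for Nr4a1 with Nr4a2 (0.73 before) and 0.41 for Egr2 with Egr4 (0.63 before). These libraries share their cell composition: r between a member and the pan-neuronal score was 0.74 for Egr3 (rho = 0.60, permutation p = 0.00139 and 0.0199, adjusted p = 0.0389 and 0.211 over 28 relations), 0.68 for Nr4a2, 0.65 for Nr4a3, 0.39 for Egr1 and -0.053 for Egr2, and without the 2 libraries farthest from the score's median it was 0.51 for Egr3 and 0.28 for Nr4a2. Egr3 with that score was the 1 relation of 28 that passed for r, and 0 passed for rho. The relations also covered scores of reactive glia, choroid plexus and striatal markers. Farthest from 0 were Nr4a3 with reactive glia (r = -0.66, rho = -0.54), Egr1 with choroid plexus (r = -0.60, rho = -0.52) and Nr4a3 with striatal markers (r = -0.65, rho = -0.55). Without the 2 libraries farthest from each score's median, r was -0.59, -0.53 and -0.36.

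**Figure D4:**
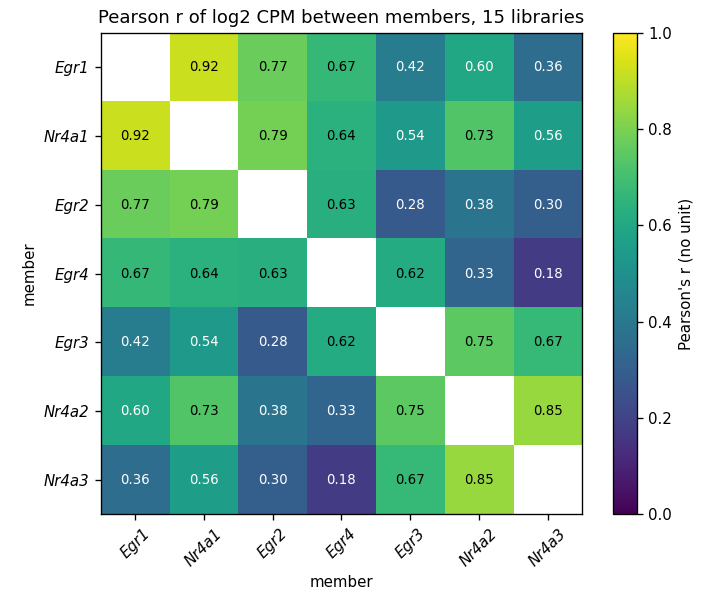
Pearson's r of log2 CPM for each pair of members (both axes) over 15 libraries, coloured from 0 to 1. All 21 values are above 0, from 0.18 for Egr4 with Nr4a3 to 0.92 for Egr1 with Nr4a1.

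**Figure D5:**
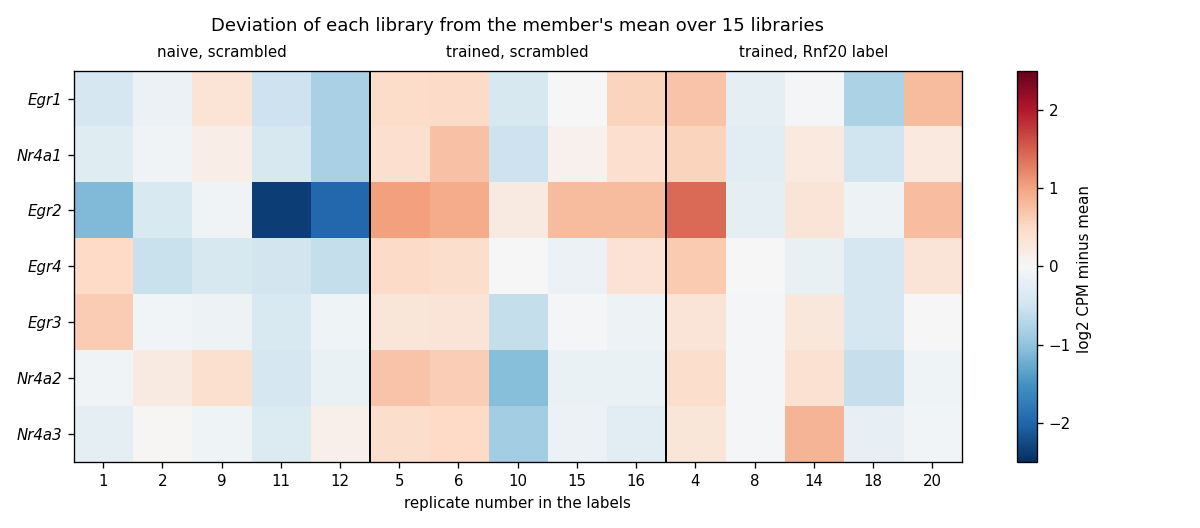
Deviation of log2 CPM from each member's mean over 15 libraries (colour), by member (y axis) and library (x axis, replicate numbers within the 3 groups). Scrambled trained replicates 5 and 6 and Rnf20-labelled replicate 4 are above the mean for all 7 members, and naive replicate 11 and Rnf20-labelled replicate 18 are below it for all 7.

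The genes whose pattern over the 15 libraries was most like each member's were different for each member, except that Egr1 and Nr4a1 shared 2 of 3. For Egr1 they were Arc, the activity-induced synaptic protein (Pearson's r 0.92, rho 0.90), Etv5, an ETS factor (0.87, 0.85), and Spry4, an inhibitor of ERK signalling (0.84, 0.81). For Nr4a1 they were again Arc (r 0.91, rho 0.90) and Etv5 (0.89, 0.92), then RGD1560065 (0.86, 0.87). For Egr2 they were the clock gene Per1 (r 0.93, rho 0.82), the AP-1 subunit Junb (0.91, 0.82) and the co-chaperone Dnajb1 (0.80, 0.78). With group means removed, r was 0.85 for Per1, 0.74 for Junb and 0.50 for Dnajb1. For Egr4 they were Dlk2 (r 0.82, rho 0.80), Klf10, a zinc finger factor (0.82, 0.79), and the AP-1 subunit Fosb (0.80, 0.76). For Egr3 they were Synpo, an actin-binding protein of dendritic spines (r 0.91, rho 0.87), Pgbd5 (0.90, 0.90) and Hdgfl3 (0.89, 0.87). For Nr4a2 they were Zfp711 (r 0.91, rho 0.86), Mllt1 (0.90, 0.84) and Kctd13 (0.89, 0.78), and for Nr4a3 Kalrn, a synaptic exchange factor (0.95, 0.95), Camta2 (0.95, 0.85) and Arid1b, a chromatin remodelling subunit (0.94, 0.93). These were the top 3 of all tested genes by r and are given as a description.

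Upstream regulators were measured as well. Of 17 tested genes for SRF, its ternary complex partners and the ERK cascade, 0 passed by edgeR in any of the 3 comparisons, and the median log2 fold change with training was 0.044 against -0.012 over all genes. Mapk3, which encodes ERK1, was at 199 ± 22.9 against 179 ± 10.8 CPM (log2 fold change 0.15, SE 0.092; edgeR adjusted p = 0.609). Of 15 genes for CREB, its CRTC coactivators and MEF2 factors, 0 passed in any comparison, with a median of -0.023 after training and 0 at an unadjusted p under 0.05. Prkacb, a catalytic subunit of protein kinase A, was at 99.98 ± 14.6 against 117 ± 9.25 CPM, and Crem, a CREB relative, at 19.9 ± 2.996 against 17.2 ± 1.68 CPM.

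Partners and reported targets followed, and their counts at an unadjusted p under 0.05 after training stand beside 9.97% of all genes, or 6.62% that were higher. Of 10 co-repressors and dimer partners 0 passed by edgeR in any comparison and 2 were at an unadjusted p under 0.05 after training, both higher, with a median of 0.010. Nab2, the Egr co-repressor that is itself an Egr target, was at 30.5 ± 3.98 in scrambled trained, 29.5 ± 1.57 in Rnf20-labelled and 25.1 ± 3.30 CPM in the naive group (a difference of 0.28 on the log2 scale, SE 0.11; edgeR adjusted p = 0.412, scrambled trained against naive). Rcor1, a co-repressor scaffold, was at 23.1 ± 1.57 against 20.0 ± 1.56 CPM (0.20, SE 0.092; adjusted p = 0.481). Of 14 reported Egr targets, 0 passed and 4 were at an unadjusted p under 0.05 after training, all higher, with a median of 0.16. The 2 of smallest p were Plau, the urokinase gene (8.82 ± 8.01 against 2.19 ± 0.662 CPM), and Fn1, fibronectin (57.9 ± 29.9 against 25.6 ± 4.00 CPM). Of 10 tested reported Nr4a targets, 0 passed and 3 were at an unadjusted p under 0.05, all higher, with a median of 0.15. The 2 of smallest p were Spp1, osteopontin (413 ± 342 against 44.3 ± 13.7 CPM), which is also 1 of the reactive glia markers, and Pdia6, a disulphide isomerase of the endoplasmic reticulum (155 ± 17.4 against 131 ± 7.23 CPM). Of the 23 other rapidly induced regulators 18 were above 0 after training, with a median of 0.41 beside the members' 0.49, 0 passed by edgeR and 8 were at an unadjusted p under 0.05. Junb was at 43.9 ± 5.77 against 26.7 ± 5.60 CPM (0.72, SE 0.13) and Cebpd, a C/EBP factor also active in glia, at 18.4 ± 6.68 against 9.31 ± 0.636 CPM (0.99, SE 0.28; edgeR adjusted p = 0.379 for both).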

How the data were processed

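The study measured RNA from dorsal CA1 of rats in 3 groups of 5 libraries, grouped and numbered by their titles. Per the submitters' processing notes, the authors used Trim Galore, FastQC, featureCounts 2.0.1, the assembly Rnor_6.0 and DESeq2. The aligner, annotation release and strand setting were not given in the sources used, so reads from overlapping or antisense genes could be included in a member's count. The labels' protocols name a stranded mRNA kit with 14 PCR cycles. The deposited raw table holds whole-number read counts. The normalised signal that the authors deposited equalled those counts over DESeq2 size factors for every gene (0 differed at a relative tolerance of 1e-06) and was not used further.

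Counts were fitted in R 4.3.3 with edgeR 4.0.16: filterByExpr (14880 of 22314 genes), TMM scaling, robust quasi-likelihood F tests over all 15 libraries with 12 residual degrees of freedom from the design, and Benjamini-Hochberg adjustment over all genes tested, with a threshold of 0.05. The fit was tested on simulated data. Log2 CPM values used a prior count of 2, correlations 100000 permutations, and marker scores averaged log2 CPM over the markers tested. Alternatives used DESeq2 1.42.0, limma 3.58.1 (voom), sva 3.50.0, other scalings and filters, covariates and omitted libraries. Named genes are the members, the 2 genes of smallest training p from each pathway list without a called gene, and the 3 genes most like each member, except for a result that is not reported here. The members and lists were chosen with earlier results of these data known. Lists overlap: Nab2 is among partners and Egr targets, Th among both target lists, Fosl2 among Nr4a targets and other regulators, and Spp1 among Nr4a targets and reactive glia markers. Promoter sequences are from RefSeq on GRCr8.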

Additional observations from a re-analysis of the deposited data

Results flagged for a closer look

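In naive replicate 1, Egr3 was at 80.3 CPM and Egr4 at 11.6 CPM, each far above the next naive library (49.4 and 6.12 CPM). The gap took 0.767 of the group's range for Egr3 and 0.875 for Egr4, past the Dixon limit of 0.71 for 5 values. Among 21 gene and group combinations checked, chance would mark about 1 in 20. Egr1, Egr2 and all 3 Nr4a genes of that library lay inside the range of the other naive libraries. It had the highest summed markers of the naive group for striatal (292 CPM, next 178 CPM), neocortical (252 CPM, next 223 CPM) and pan-neuronal genes (7690 CPM, next 7462 CPM). Its summed CA1 markers, at 682 CPM, lay inside the naive range. Whether this goes with the high Egr3 and Egr4 was not tested.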

How the results depend on the processing

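No paired analysis was possible because the replicate numbers differ between the groups. By DESeq2 1 member, Egr2, was called after training, with 58 genes called in all against 0 by edgeR; it also called 1 of the 23 other rapidly induced regulators there and 9 genes among the 3 groups. In every other alternative run 0 members were called in any comparison. Egr2, Egr1, Egr4 and Nr4a1 kept a log2 fold change above 0 in all 27 alternatives of both comparisons with naive libraries, Egr2 between 1.53 and 2.16 after scrambled training with an adjusted p of 0.0189 to 0.819. Directions near 0 turned. After training, Nr4a2 was at -0.018 by limma-voom and -0.076 without the 3 libraries low in choroid plexus RNA, and Egr3 was at 0.25 with the pan-neuronal score, 0.26 with the reactive glia score, 0.15 with a surrogate variable and 0.16 without the 4 libraries far out on component 1. Between the trained groups, Nr4a2 was at 0.041 and 0.16 in the first 2 of these settings, Egr3 at -0.14, -0.22, -0.17 and -0.075 in the other 4, and Nr4a3 at -0.15, -0.12 and -0.20 in the last 3. Rnf20-labelled against naive, the surrogate variable gave -0.0165 for Egr3 and -0.041 for Nr4a2. The cause was not tested. Leaving out single libraries gave, after training, -0.11 to 0.18 for Egr3, -0.10 to 0.28 for Nr4a2 and -0.029 to 0.27 for Nr4a3; between trained groups, -0.24 to 0.11 for Egr1, -0.069 to 0.14 for Egr3, -0.23 to 0.15 for Nr4a2 and -0.0073 to 0.36 for Nr4a3; and Rnf20-labelled against naive, -0.061 to 0.22 for Egr3 and -0.066 to 0.18 for Nr4a2. The 13 member pairs past the permutation threshold fell to 5 when the 4 libraries far out on component 1 were left out, to 7 without the 3 low in choroid plexus RNA (an alternative chosen after the data were seen) and ranged over 7 to 14 without single libraries: 8 without scrambled trained replicate 5 or 6 and 7 without Rnf20-labelled replicate 4. Members at an unadjusted p under 0.05 after training numbered 2, and 1 to 4 when single libraries were left out. Egr2 was the member limited most by depth, with as few as 10 reads in a library.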
